A study of Homo sapiens with 18 samples.

Results

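The ZNF genes of chromosome 19 were followed here in NAT10-KD pancreatic cancer cells, by their position along the chromosome. Members were all protein-coding genes of chromosome 19 in GENCODE v29 (GRCh38) whose symbol is ZNF, a number and at most 1 letter. This gave 246 of the 58302 genes in the expression table, and 3 readthrough loci with hyphenated symbols were left out. PANC-1 is an established line from a pancreatic ductal carcinoma. The cells carried either a lentiviral empty shRNA vector (shCtrl) or a lentiviral shRNA against NAT10 (shNAT10), the enzyme that acetylates cytidine to N4-acetylcytidine (ac4C). The control is an empty vector by the labels, while the study's oligonucleotide list names a non-targeting shRNA, and which of these the libraries carried is not settled by these sources. RNA-seq covered 3 libraries per group, and acRIP-seq, in which RNA fragments are pulled down with an ac4C antibody (IP), covered 3 IP and 3 input libraries per group. No source says whether the replicates were separate cultures, so p-values measure the spread between these libraries, which may be technical.

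Most of these genes encode proteins with a row of zinc fingers, each finger being a short loop in which a pair of cysteines and a pair of histidines hold a zinc ion and read a few bases of DNA. In many, a KRAB box at the N-terminus recruits the corepressor TRIM28 and with it the histone methyltransferase SETDB1, and the protein then silences chromatin, often at transposable elements. The genes arose by repeated tandem duplication and lie in large clusters on chromosome 19, so neighbours can be similar in sequence.

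Consecutive members with starts under 1 Mb apart, on the same side of the centromere, were taken as a cluster. There were 16 clusters, numbered from the short-arm end, and 9 of them held at least 5 members and together 235 members. On the short arm lay 83 members and on the long arm 163. In the proteins translated from the longest coding sequences, the median was 12 fingers and the highest count 36. The letters of the KRAB box used here (F, 3 residues, EW, 2 residues, L, 6 residues, LY, a pattern widened after the sequences were seen) were found in 182 members. With an arginine fixed before the last residues of that pattern they were found in 109. A KRAB box that departs from these letters is missed.

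The recovered depth was 15831720 to 23521762 reads per library. NAT10 itself fell from a mean FPKM of 29.3 ± 2.01 (SD, n = 3) in shCtrl to 8.09 ± 0.301 in shNAT10, a log2 fold change of -1.84 (limma, adjusted p = 3.85e-05), so the libraries carried the labelled knockdown. Correlations of log2 values were lowest for shCtrl replicate 2, at 0.959 and 0.975 with the other shCtrl libraries against 0.980 to 0.982 among the rest within groups. The ductal markers KRT8, KRT18, KRT19 and KRT7 and the mesenchymal marker VIM were expressed, with no value under an FPKM of 4.52, and the 4 keratins fell in shNAT10 (log2 fold change -1.18 to -0.83). Of 14 markers of other cell types, 12 stayed under an FPKM of 1 in every library, 5 of them at 0 throughout. The other two were the collagens COL1A1 and COL3A1, and the summed level of the 14 markers was an FPKM of 29.7 to 34.8 in shCtrl and 19.4 to 23.1 in shNAT10. COL1A1 makes up most of that sum and fell (log2 fold change -0.69), while COL3A1 rose (1.24, limma, adjusted p = 0.00182). The part of these genes in the results below was not tested.

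The chromosome 19 ZNF genes were lowly expressed in PANC-1 cells. The median over the 246 members of the mean FPKM was 1.83 in shCtrl and 2.41 in shNAT10, and 16 members were listed at 0 in all 6 libraries. The number of members at an FPKM of at least 1 was 171, 163 and 171 in shCtrl replicates 1 to 3 and 178, 180 and 181 in shNAT10 replicates 1 to 3. Their summed FPKM was 763, 704 and 750 in shCtrl and 917, 936 and 953 in shNAT10. The groups did not overlap in either count or sum. In bulk RNA, a change in the share of cells that make a transcript and a change in its level per cell cannot be told apart.

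Among the members that could be tested, more rose than fell in NAT10-KD cells. A gene was tested with limma on log2(FPKM + 0.1) when its FPKM was at least 1 in at least 3 libraries, which held for 12982 genes and 179 members, and called at a Benjamini-Hochberg adjusted p under 0.05 over all tested genes. Of the 179 members, 82 (45.8%) rose, against 20.8% of all tested genes, and 12 (6.70%) fell, against 21.2%. Fold changes here are on the log2(FPKM + 0.1) scale, which understates the change of low genes. With a log2 fold change beyond 1 as a second, stricter condition, 22 members (12.3%) rose, against 2.91% of all tested genes, and 2 (1.12%) fell, against 3.57%. The 3 shNAT10 values lay above all 3 shCtrl values in 112 members (62.6%), against 27.9% of all tested genes, and below them in 19 (10.6%), against 28.6%.

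The median log2 fold change of the tested members was 0.39 (quartiles 0.15 and 0.72), beside -0.01 over all tested genes (quartiles -0.31 and 0.30). A log2 fold change above 0 was seen in 145 of the 179. Members that rose did so by a median of 0.75 on the log2 scale, from 0.27 up to 1.84, and members that fell had a median of -0.53. The filter let 7 members in through shNAT10 alone, all of which were called higher, so the counts above are a description of the members that passed. When every gene seen in any library was tested, 64 of 230 members rose and 5 fell, against 7.55% and 7.85% of all genes in that fit. When genes were chosen by their mean over the 6 libraries, 80 of 176 rose and 12 fell, against 20.8% and 21.1%. On TPM the split over all genes moved to 25.8% higher and 16% lower, with 91 members higher and 6 lower. Leaving out shCtrl replicate 2 gave 85 higher and 11 lower members and a median of 0.32, against 25.4% and 25.6% of all genes. The calls for falling members depended on single libraries, with 5 without shCtrl replicate 3, 5 without shNAT10 replicate 1, 4 without shNAT10 replicate 2 and 6 without shNAT10 replicate 3. Without shNAT10 replicate 2 the number of called members in both directions was 60, against 94 with all libraries. Calls over all genes were fewer in these 4 fits too, at 13.6% to 14.6% lower.

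At the short-arm end, cluster 1 (chr19:2819874-2944971, ZNF554 to ZNF77) held 5 members, of which 2 were tested and none was called, with a median log2 fold change of -0.11. It was the single one of the 9 larger clusters with a median below 0. Cluster 2 (chr19:7069444-9793180, ZNF557 to ZNF846) had 12 of its 15 members tested, 4 higher and 1 lower, with a median of 0.28. The largest rise there was that of ZNF558 (chr19:8806170-8832328), a KRAB protein known to repress the mitophagy gene SPATA18. Its FPKM was 4.54, 3.79 and 4.45 in shCtrl and 8.39, 9.09 and 9.50 in shNAT10, a log2 fold change of 1.06 (SE 0.10, adjusted p = 0.000354). The lowest shNAT10 value was close to double the highest shCtrl value. ZNF414 (chr19:8509678-8514164), the member of cluster 2 that fell, had an FPKM of 3.16, 5.99 and 4.01 in shCtrl against 2.66, 2.84 and 2.53 in shNAT10, with a log2 fold change of -0.64 and an adjusted p of 0.0499. The shCtrl values spread widely, with replicate 2 the highest. Without that library the log2 fold change was -0.40 (adjusted p = 0.0368), and without shCtrl replicate 3 or any 1 shNAT10 library the adjusted p was 0.0995 to 0.135.

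Cluster 3 (chr19:11483427-12640098, ZNF653 to ZNF791) held 25 members. Of the 14 that were tested, 6 rose and 1 fell, with a median of 0.34. ZNF439 (chr19:11848726-11883750) rose the most, from an FPKM of 2.70, 2.43 and 2.55 to 4.07, 4.20 and 4.62 (log2 fold change 0.72, SE 0.10, adjusted p = 0.00157). It stands in a run of 4 consecutive tested members that all rose, ZNF440, ZNF439, ZNF69 and ZNF700. ZNF653 (chr19:11483427-11505923), which has no KRAB letters and only 5 fingers, fell from an FPKM of 1.70, 2.16 and 2.03 to 1.47, 1.29 and 1.34 (log2 fold change -0.49, adjusted p = 0.0381). Its call was lost without any 1 library other than shCtrl replicate 1 (adjusted p = 0.0698 to 0.117), and with the GC and length correction described further on the estimate was -0.24 (adjusted p = 0.193).

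Cluster 5 (chr19:19668796-24129961, ZNF101 to ZNF254) lies next to the centromere and holds 37 members, 35 of them with the KRAB letters. Its members were lowly expressed, with a median FPKM of 0.918 in shCtrl and 1.1 in shNAT10, 10 members under 0.1 and 17 members not tested. Of 20 tested members 10 rose, none fell, and the median was 0.45. ZNF429 (chr19:21496682-21556270) rose the most, with an FPKM of 2.07, 1.02 and 1.49 in shCtrl and 4.70, 4.61 and 4.99 in shNAT10 (log2 fold change 1.63, SE 0.23, adjusted p = 0.00175). The shCtrl values spread by a factor of about 2, with replicate 2 the lowest, and the shNAT10 values lay close together well above them. ZNF681 (chr19:23739195-23758891) was at an FPKM of 0.311, 0.388 and 0.438 in shCtrl and 1.10, 1.02 and 1.18 in shNAT10 (log2 fold change 1.33, SE 0.27, adjusted p = 0.00753), and it passed the filter through shNAT10 alone.

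Cluster 5 also holds known repressors of retrotransposons. ZNF91 (chr19:23304991-23395560), with 31 fingers, is known to silence SVA and LINE-1 elements. Its FPKM was 3.53, 2.12 and 2.96 in shCtrl and 4.36, 3.93 and 4.72 in shNAT10, a log2 fold change of 0.60 (SE 0.18, adjusted p = 0.0359). The groups did not overlap, but the call was lost without shCtrl replicate 3 or any 1 shNAT10 library (adjusted p = 0.0655 to 0.116) and with no filter (0.0871). ZNF93 (chr19:19900913-19963464), which binds LINE-1 elements, was too low to be tested, at an FPKM of 0.109, 0.0933 and 0.337 in shCtrl and 0.310, 0.311 and 0.363 in shNAT10, and its groups overlapped.

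On the long arm, all 5 members of cluster 8 (chr19:34677639-34964049, ZNF302 to ZNF792) were tested. ZNF181 (chr19:34734155-34745378) rose the most of the 3 that rose, from an FPKM of 2.80, 3.05 and 3.44 to 6.26, 6.09 and 5.58 (log2 fold change 0.93, SE 0.10, adjusted p = 0.000735). In ZNF181, 11.7% of the stretches of 50 bases also occur in transcripts of other genes. At the far end of the same cluster 2 neighbours fell, and for ZNF792 (chr19:34956354-34964049) the FPKM went from 2.58, 1.56 and 2.27 to 1.14, 1.39 and 1.43 (log2 fold change -0.64, adjusted p = 0.0477). The call for ZNF792 was lost without any 1 library other than shCtrl replicate 2 (adjusted p = 0.0900 to 0.141).

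Cluster 9 (chr19:36182060-37817300, ZNF565 to ZNF573) had the largest share of rising members among the clusters with over 5 tested, 15 of 23 (65.2%), with none lower and a median of 0.52. It contains ZNF146 (chr19:36214602-36238774), a protein made of fingers alone and the highest expressed member. The FPKM of ZNF146 was 52.5, 50.2 and 53.9 in shCtrl and 71.2, 72.9 and 77.2 in shNAT10, a 1.41-fold difference with no overlap (log2 fold change 0.50, SE 0.06, adjusted p = 0.00124). The largest rise was that of ZNF585B (chr19:37181579-37218153), from an FPKM of 3.24, 2.74 and 3.44 to 7.22, 7.22 and 7.46 (log2 fold change 1.2, SE 0.10, adjusted p = 0.000272). ZNF585B shares 20.2% of its stretches of 50 bases with other genes, its neighbour ZNF585A first. ZNF420 (chr19:37007857-37130314), also known as Apak, a KRAB protein that restrains apoptosis, rose from 3.44 ± 0.405 to 4.96 ± 0.147 (mean FPKM ± SD, n = 3, log2 fold change 0.52, adjusted p = 0.00865).

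Between clusters 9 and 12 lie 2 of the other highly expressed members, ZNF780B (chr19:40028260-40056209) and ZNF780A (chr19:40069152-40090938). Neither was called. ZNF780B was at an FPKM of 37.4, 22.6 and 31.2 in shCtrl and 36.9, 39.9 and 42.3 in shNAT10 (adjusted p = 0.0957, with a call without shCtrl replicate 1 and with the GC and length correction, at 0.0185 and 0.0225), and ZNF780A at 49, 31.1 and 44.8 against 42.2, 41.6 and 45 (adjusted p = 0.748). In both, shCtrl replicate 2 was far below the other shCtrl libraries and the groups overlapped. Without that library the estimate for ZNF780A turned to -0.13 on the log2 scale.

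Cluster 12 (chr19:43525497-45076588, ZNF575 to ZNF296) had 7 higher and 1 lower among 19 tested members, with a median of 0.23. It contains both a strong rise and the strongest fall of all members. ZNF229 (chr19:44417519-44448578) went from an FPKM of 2.28, 1.27 and 1.56 to 3.60, 3.99 and 4.01 (log2 fold change 1.18, SE 0.20, adjusted p = 0.0042). ZNF296 (chr19:45071500-45076588), a short gene with 6 fingers and no KRAB letters, went from 2.61, 3.57 and 3.14 to 0.797, 1.00 and 1.30 (log2 fold change -1.52, SE 0.21, adjusted p = 0.00157). The highest shNAT10 value of ZNF296 lay far below its lowest shCtrl value. ZNF224 (chr19:44094339-44109886), a repressor known to partner with WT1, was not called, with an FPKM of 5.01 ± 0.485 in shCtrl and 5.53 ± 0.203 in shNAT10 (log2 fold change 0.14, 95% confidence interval -0.08 to 0.37).

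Cluster 15 (chr19:51571298-53580269, ZNF175 to ZNF331) had the highest median of the larger clusters, 0.66, and 8 of the 22 members past the stricter condition. Of 30 tested members 17 rose and 1 fell, and 38 of its 39 members hold the KRAB letters. ZNF616 (chr19:52113091-52139922), with 21 fingers, rose the most of all members, from an FPKM of 0.505, 0.536 and 0.657 to 2.30, 2.14 and 2.40 (3.59-fold, log2 fold change 1.84, SE 0.18, adjusted p = 0.000447). Like ZNF681, it passed the filter through shNAT10 alone. ZNF616 opens a run of 7 consecutive tested members that rose, from ZNF616 to ZNF611, with log2 fold changes of 0.54 to 1.84. A second run of 5 begins with ZNF845 (chr19:53333746-53356906), whose FPKM was 3.38, 2.51 and 2.59 in shCtrl and 8.37, 8.63 and 9.71 in shNAT10 (log2 fold change 1.63, SE 0.13, adjusted p = 0.000226). Next to it, ZNF525 (chr19:53365693-53392217) rose by 1.33 (SE 0.17, adjusted p = 0.0011). 

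Between these runs, ZNF28 (chr19:52797409-52857600) and ZNF468 (chr19:52838008-52890375) overlap on the same strand. ZNF468 went from 2.68, 1.86 and 2.38 to 7.38, 7.86 and 7.98 (log2 fold change 1.72, SE 0.14, adjusted p = 0.000221), and ZNF28 from 3.00, 2.01 and 2.59 to 6.5, 6.09 and 6.41 (log2 fold change 1.31, SE 0.15, adjusted p = 0.000722). Since 99.2% of the stretches of 50 bases in the longest ZNF468 transcript also occur in overlapping loci, the values of ZNF468 are uncertain as a measure of that gene alone. ZNF808 (chr19:52527652-52564464), a KRAB protein needed for the development of the human pancreas, rose from an FPKM of 1.92, 0.957 and 1.33 to 2.31, 2.48 and 2.38 (log2 fold change 0.78, adjusted p = 0.0346). That call was lost without shCtrl replicate 3 or any 1 shNAT10 library (adjusted p = 0.0880 to 0.101) and with no filter (0.0852). ZNF611 (chr19:52702813-52735073) rose from 2.13 ± 0.467 to 3.38 ± 0.0836 (mean FPKM ± SD, n = 3, adjusted p = 0.0154), a call lost without the same libraries (0.0508 to 0.058), and it and ZNF808 share 13.6% and 15.5% of their stretches of 50 bases with other genes. The last member of the cluster, ZNF331 (chr19:53519527-53580269), an imprinted gene, was the one that fell, from 11.8, 11.1 and 11.4 to 8.01, 8.59 and 8.41 (log2 fold change -0.45, SE 0.07, adjusted p = 0.00247).

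Cluster 16 (chr19:55476332-58481230, ZNF628 to ZNF446), at the long-arm end, is the largest, with 59 members. Of 46 tested members 18 rose and 5 fell, and the median was 0.29. Its start holds ZNF580 (chr19:55635016-55643469) and ZNF581 (chr19:55635459-55645622), overlapping genes on the same strand with 3 and 4 fingers. ZNF580 went from an FPKM of 20.1, 28.7 and 20.6 to 10.8, 11.7 and 9.48 (log2 fold change -1.09, SE 0.15, adjusted p = 0.00174), and ZNF581 from 16.7, 24.8 and 17.9 to 13.9, 14.8 and 11.9 (log2 fold change -0.53, SE 0.16, adjusted p = 0.0333). The call for ZNF581 was lost without shCtrl replicate 3 or any 1 shNAT10 library (adjusted p = 0.0588 to 0.113) and with no filter (0.0778). Both are among the 5 highest expressed members in shCtrl cells. As ZNF580 and ZNF581 overlap on the same strand, how far their values measure each gene alone was not tested.

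Further along cluster 16, there were again runs of consecutive tested members that rose. Untested members were passed over in all the runs named here. Of the tested members 45.8% rose, and 39.1% in cluster 16, and whether the runs are longer than such shares give was not tested. The run of 5 from ZNF530 to ZNF776 contains ZNF551 (chr19:57681969-57717301), which rose the most in the cluster, from an FPKM of 1.47, 1.4 and 1.63 to 3.61, 3.99 and 4.30 (log2 fold change 1.35, SE 0.12, adjusted p = 0.000321). A run of 7 from ZNF417 to ZNF544 contains ZNF606 (chr19:57977053-58003349), from 1.82, 1.65 and 1.76 to 4.48, 4.02 and 4.27 (log2 fold change 1.24, SE 0.10, adjusted p = 0.000246). The same run holds ZNF274 (chr19:58183029-58213562), known to bring SETDB1 to the ends of other ZNF genes, which rose from 1.90, 2.06 and 2.28 to 2.93, 3.27 and 3.17 (log2 fold change 0.57, SE 0.12, adjusted p = 0.00819). ZNF772 (chr19:57466663-57477570) rose by 1.31 (SE 0.21, adjusted p = 0.00328), from 1.10, 0.638 and 0.855 to 2.18, 2.09 and 2.47. In each of these members the groups did not overlap.

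With 3 libraries against 3, the exact two-sided permutation test cannot give a p below 0.1. It gave 0.1 for every named member whose groups did not overlap, which follows from that absence of overlap. Over all 246 members, 82 overlap another locus on the same strand and 20 share at least 10% of their stretches of 50 bases with other genes. The median share of such stretches was 1.06%. A locus on the opposite strand overlaps 78 members, and whether reads were counted by strand is not stated. Among the 115 tested members without an overlapping locus on the same strand and with at most 10% shared, 54 rose and 7 fell. Of all tested genes 20.8% rose and 21.2% fell.

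Genes that lie among the members but are not members gave other values. Within the bounds of the 9 larger clusters, 58 other protein-coding genes were tested, of which 14 rose and 17 fell, with a median log2 fold change of -0.02. Of all other protein-coding genes of chromosome 19, 664 were tested, 104 rose (15.7%) and 199 fell (29.97%), with a median of -0.17. Of the ZNF genes named in the same way on other chromosomes, 205 were tested, 71 rose (34.6%) and 18 fell (8.78%), with a median of 0.18. ZNF genes elsewhere in the genome thus had the same direction as those of chromosome 19, with a smaller median, and the difference between them was not tested.

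Transcript composition moved with these values. The median GC content of the longest transcript was 42.3% for tested members, 45.4% for ZNF genes on other chromosomes, 60.3% for the other genes of chromosome 19 and 48.1% for all tested genes. Under a GC content of 40%, 26 of 52 members rose and none fell, with a median of 0.44, beside 0.08 for genes that are no ZNF genes. From 40% to 45%, 39 of 73 rose and none fell, with a median of 0.50 beside 0.05. From 45% to 55%, 17 of 35 rose and 4 fell, with a median of 0.41 beside -0.01. At 55% and over the direction was the opposite, with 0 of 19 members higher, 8 lower and a median of -0.44 beside -0.15. Those 8 include ZNF296, ZNF580, ZNF581, ZNF653 and ZNF414. Of the genes that are no ZNF genes, 15.4% rose and 29.2% fell in this range, so falls were the more common call there too. Of ZNF genes on other chromosomes, 10 of 49 rose and 9 fell in it. In the ranges below 55%, 21.2% to 23.1% of the genes that are no ZNF genes rose and 15.1% to 20.5% fell.

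When each library was corrected for GC content and transcript length with splines over the tested genes, an alternative chosen after seeing the data, 87 members rose and 15 fell, with a median of 0.36. The same fit called 26.9% of all genes higher and 26% lower, so calls grew over the whole table. The members at a GC content of 55% and over then had a median of -0.20, against 0.00 for the genes that are no ZNF genes, and the other genes of chromosome 19 a median of -0.02.

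Protein features moved with the values as well. Of 131 tested members with the KRAB letters 63 rose and 5 fell, with a median of 0.44, and of 48 without them 19 rose and 7 fell, with a median of 0.21. Members with 1 to 8 fingers had 10 higher and 7 lower of 33 and a median of 0.20, and those with at least 17 fingers had 21 higher and 1 lower of 38 and a median of 0.51. These groups also differ in GC content, with a median of 47.4% for the former and 40.8% for the latter, so the features cannot be told apart here. The letters were found in 2 of the 24 members of cluster 12, although ZNF224 of that cluster is known as a KRAB protein, so members without them are not members without a KRAB box.

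The proteins through which KRAB zinc fingers act were examined as a list of 25 genes, all tested. Of these 8 rose and 3 fell, none beyond a log2 fold change of 1, with a median of 0.15. TRIM28, the corepressor that KRAB boxes bind, was not called, at an FPKM of 212 ± 38.6 in shCtrl and 180 ± 9.69 in shNAT10 (log2 fold change -0.22, adjusted p = 0.198). SETDB1 fell slightly, from 14.8 ± 0.152 to 12.1 ± 0.622 (log2 fold change -0.29, adjusted p = 0.0147), as did MPHOSPH8, a reader of the mark SETDB1 makes (log2 fold change -0.27, adjusted p = 0.0221). The heterochromatin protein CBX1 (log2 fold change 0.72, adjusted p = 0.00024) and the remodelling enzyme CHD3 (log2 fold change 0.96, adjusted p = 0.000163) rose. On the same list CBX3 (log2 fold change 0.01), CBX5 (0.31) and CHD4 (0.13) were not called.

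A short motif was counted in the promoters of the members. In the RefSeq promoter table (GRCh38.p14, 250 bases before to 50 after a start), 215 members were matched by symbol. The letters CCGGAAG, searched on both strands and chosen after the promoters had been read, occurred in 98 of them (45.6%, 95% Wilson interval 39.1% to 52.3%), in 73 of 211 promoters of ZNF genes on other chromosomes (34.6%, 28.5% to 41.2%) and in 10.7% of all 27305 promoters. Since the letters were chosen after reading, their share in the members is partly set by that choice, which the intervals do not cover. Of 108 matches in member promoters, 78.7% began within 50 bases of the start, against 52.1% of matches in all promoters. The motif was found in 37 of 72 members that rose, 5 of 11 that fell and 37 of 79 tested members that were not called, so its share did not separate the calls beyond the counting intervals (40.1% to 62.6%, 21.3% to 71.99% and 36.2% to 57.7%). The bases around the start of the member with the largest rise (ZNF616, chr19:52139909-52139988, minus strand) and of the fallen ZNF580 (chr19:55640952-55641031, plus strand), 50 before and 30 after it, are given with the match in capitals.
ZNF616: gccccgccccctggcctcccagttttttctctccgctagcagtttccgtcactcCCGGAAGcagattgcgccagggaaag
ZNF580: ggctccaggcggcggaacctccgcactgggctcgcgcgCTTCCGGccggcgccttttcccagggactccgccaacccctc

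In the acRIP-seq peak lists, of which there is 1 per group, 68 members had a shCtrl peak and 74 a shNAT10 peak. In both lists stood 30 members, which is 44.1% of the members with a shCtrl peak and 40.5% of those with a shNAT10 peak, and 134 members had no peak. The lists give the fold enrichment of IP over input for each peak and no value per library, so no test against replicate spread can be made. The bounds given with shares are 95% Wilson limits, which describe counting error and nothing else.

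The share of members with a peak was set beside that of other genes at the same expression level. At a mean FPKM of 1 to 5 in shCtrl, 41 of 137 members had a peak (29.9%, 22.9% to 38.1%), beside 40.3% of protein-coding genes that are no members (38.5% to 42.0%). In shNAT10 the same level gave 38 of 131 members (29.01%, 21.9% to 37.3%) beside 38.0% (36.2% to 39.8%). In these shares the interval of the members ended below that of the other genes in shCtrl, and overlapped it in shNAT10. At an FPKM under 0.1 the shares were 4 of 34 members (11.8%) beside 11.3% in shCtrl, and 4 of 33 (12.1%) beside 10.8% in shNAT10, and the intervals overlapped.

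Expression was also compared between members with and without a peak. Of 56 tested members with a shCtrl peak 27 rose and 1 fell, with a median log2 fold change of 0.47, and of 123 without one 55 rose and 11 fell, with a median of 0.37. For the shNAT10 list these values were 28 and 5 of 62, with a median of 0.40, and 54 and 7 of 117, with a median of 0.38. Members with a shCtrl peak were also higher expressed, with a median FPKM over the 6 libraries of 3.44 against 2.78.

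Member peaks seldom stood in both lists. Of 100 shCtrl peaks 8 (8.0%, 4.11% to 15.0%) overlapped a shNAT10 peak by at least 1 base on the same strand, beside 25.6% of all shCtrl peaks, and of 101 shNAT10 peaks 9 (8.91%, 4.76% to 16.1%) overlapped a shCtrl peak, beside 27.4%. The intervals of the members ended below the values of all peaks in both lists. Some entries of a list nearly repeat each other, and the intervals count each entry apart. Such are the shNAT10 entries of ZNF841 at chr19:52067240-52067508 and chr19:52067253-52067523, which both overlap a shCtrl peak. Median fold enrichment was 135 for member peaks in shCtrl (quartiles 44.6 and 523) and 164 in shNAT10 (38.3 and 658), beside 49.3 and 45.2 over all peaks of each list. It is scaled within a list and does not compare the groups. Neither the overlap nor the fold enrichment was matched for expression. Tested members had a median FPKM of 2.91, beside 8.13 over all tested genes. The part of expression level in these differences was not tested. Of the placed peaks on members 51 of 89 in shCtrl (57.3%) and 42 of 85 in shNAT10 (49.4%) had their midpoint in the CDS, which makes up 41.7% of the length of the members' longest coding transcripts, and 33 and 37 lay in the 3′ UTR.

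The 8 members with overlapping peaks were ZNF266, ZNF146, ZNF575, ZNF224, ZNF841, ZNF611, ZNF444 and ZNF544. For ZNF224 the fold enrichment of the pair was 72 in shCtrl and 2110 in shNAT10, and for ZNF611 it was 205 and 1190. For ZNF575 it was 342 and 1370, for ZNF266 169 and 273, and for ZNF841 48.5 and 87. ZNF146 had 137 in shCtrl and 6.45 in shNAT10. The remaining pairs, outside the fixed rule, had 32.4 and 9.86 for ZNF444 and 40.4 and 44.8 for ZNF544. These values are side by side only, since the scale is that of each list. The peaks of a pair also overlap mostly in part, since 1.00% of shCtrl member peaks met a reciprocal overlap of 50%. Those of ZNF575 meet at chr19:43526550, where the shCtrl peak starts and the shNAT10 peak ends. Expression of ZNF266 rose (log2 fold change 0.39, adjusted p = 0.0451), a call lost without any 1 library other than shCtrl replicate 2 (adjusted p = 0.0853 to 0.146), with no filter, with quantile normalization or median centring and with the GC and length correction (0.0512 to 0.113). Expression of ZNF841 was not called (0.54, adjusted p = 0.0833), but was without shCtrl replicate 1 (0.014) and with voom on recovered reads (0.0479). ZNF444, which was not chosen by the fixed rule, had the most peaks of all members, 4 in shCtrl and 5 in shNAT10.

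The highest fold enrichments stood on lowly expressed members. In shCtrl they were those of ZNF431 (3280, chr19:21183209-21183509), ZNF799 (3110, chr19:12393856-12394095) and ZNF66 (1920, chr19:20805982-20806220), with mean FPKM values over 6 libraries of 0.953, 0.854 and 0.783. In shNAT10 they were those of ZNF836 (2400, chr19:52155118-52155298), ZNF561 (2300, chr19:9610306-9610486) and ZNF471 (2280, chr19:56525351-56525560), with 0.583, 2.44 and 0. ZNF471 was listed at an FPKM of 0 in all 6 RNA-seq libraries and yet had 2 shNAT10 peaks. The IP libraries were made from total RNA, with cDNA of ribosomal RNA removed, and the RNA-seq libraries with an mRNA kit, and the part of this difference was not tested. In ZNF799, 27.8% of the stretches of 50 bases occur in other genes, with ZNF443 first.

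The repeated finger units were looked for in the peaks. The letters GAGAAACC on the strand of the gene, which can encode the glutamate, lysine and proline of the linker between fingers, were found in 23 of 77 member peaks with a readable sequence in shCtrl (29.9%, 20.8% to 40.8%) and in 22 of 82 in shNAT10 (26.8%, 18.4% to 37.3%), beside 1.01% and 1.09% of all peaks. In windows of 211 bases in the coding sequence of members outside peaks the share was 38.4% of 1824, and in coding peaks of members 40.5% of 42 in shCtrl and 36.6% of 41 in shNAT10. Among coding stretches, the linker letters thus stood in the peaks about as often as outside them, and the difference was not tested. A C followed by any 2 bases, 4 times in a row, was found in 12 of 77 member peaks in shCtrl (15.6%, 9.15% to 25.3%) and 27 of 82 in shNAT10 (32.9%, 23.7% to 43.7%), beside 51.5% and 50.7% of all peaks. Among coding peaks of members alone it was found in 11.9% and 31.7%, beside 26.9% of coding windows outside peaks, and UTR windows of members outside peaks had 34.9%. Of 159 member peaks with a sequence, 34 held a stretch of 50 bases that also occurs at another locus, and in 11 this was so for 50% or more of the stretches.

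Printed first are the most enriched coding peaks of up to 300 bases, those of ZNF66 in shCtrl (chr19:20805982-20806220, plus strand, GC content 33.5%) and ZNF836 in shNAT10 (chr19:52155118-52155298, minus strand, 38.1%). For the overlap between lists, the ZNF224 pair is shown (shCtrl chr19:44106979-44107249 and shNAT10 chr19:44107219-44107458, plus strand, 42.8% and 41.7%). The sequences are GENCODE v29 transcripts on GRCh38, with the linker letters in capitals, and none of the 4 holds a stretch of 50 bases that occurs at another locus.
ZNF66 shCtrl: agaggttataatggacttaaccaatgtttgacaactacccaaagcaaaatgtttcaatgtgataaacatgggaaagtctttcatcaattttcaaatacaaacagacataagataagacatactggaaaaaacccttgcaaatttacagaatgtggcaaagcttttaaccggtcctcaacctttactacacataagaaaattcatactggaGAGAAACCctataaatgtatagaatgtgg
ZNF836 shNAT10: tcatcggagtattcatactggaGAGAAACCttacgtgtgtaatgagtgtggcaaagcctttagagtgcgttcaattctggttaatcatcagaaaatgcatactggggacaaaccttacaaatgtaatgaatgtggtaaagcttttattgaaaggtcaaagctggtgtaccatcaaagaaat
ZNF224 shCtrl: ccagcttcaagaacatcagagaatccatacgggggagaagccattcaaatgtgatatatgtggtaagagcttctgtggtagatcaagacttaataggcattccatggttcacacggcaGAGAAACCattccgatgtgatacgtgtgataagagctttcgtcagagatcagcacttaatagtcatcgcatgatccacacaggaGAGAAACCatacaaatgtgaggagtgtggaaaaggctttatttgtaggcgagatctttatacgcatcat
ZNF224 shNAT10: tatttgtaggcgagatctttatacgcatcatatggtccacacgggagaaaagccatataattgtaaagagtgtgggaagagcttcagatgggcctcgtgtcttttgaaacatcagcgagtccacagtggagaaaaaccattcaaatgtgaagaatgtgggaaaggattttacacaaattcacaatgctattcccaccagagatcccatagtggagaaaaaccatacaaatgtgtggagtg

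The ZNF66 and ZNF836 peaks hold the linker letters once each, the shCtrl peak of ZNF224 holds them 2 times, and its shNAT10 peak, which carries the higher fold enrichment, does not hold them.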

How the data were processed

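PANC-1 cells with a control shRNA vector, empty by the labels (shCtrl), or a NAT10 shRNA (shNAT10) were compared in 3 RNA-seq libraries per group and in 1 acRIP-seq peak list per group. The authors deposited FPKM values per gene and library, and the submitters' processing notes name HISAT2, HTSeq 0.11.0 and GRCh38 without giving settings. The fold enrichment of IP over input was deposited by the authors with each peak, and the peak caller is not given in the sources used here. FPKM times the longest GENCODE v29 transcript length gave whole reads for 97.3% of values (within 0.05 reads), from which depth was taken.

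Genes reaching 1 FPKM in 3 or more libraries were tested with limma 3.58.1 (R 4.3.3, mean-variance trend) on log2(FPKM + 0.1), with Benjamini-Hochberg adjustment over all 12982 genes, and every adjusted p is from limma. Scripts were tested on simulated data. Peaks were joined to genes by the gene identifier each list gives and overlapped by at least 1 base. Fingers and KRAB letters came from translated GENCODE v29 coding sequences. Genes were named with values when past a log2 fold change of 1 (up to 10 in each direction), when they rose or fell the most in a cluster of at least 5 members, when among the 5 highest in shCtrl, when holding the 3 highest peaks of a list or the 5 strongest overlapping pairs, or when of known role. The members and lists were chosen with earlier results of these data known. Alternatives changed the pseudocount, filter, scaling, libraries, block and peak thresholds.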

Additional observations from a re-analysis of the deposited data

How the results depend on the processing

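Of 607 alternative values of the 35 named members, 542 kept their direction and side of the threshold, 57 lost the call, 4 gained it and 4 reversed. The reversed values were uncalled to begin with: ZNF431 was at -0.13 with the GC and length correction and at -0.079 without shCtrl replicate 2, and ZNF780A at -0.11 and -0.13. Leaving out 1 library at a time gave 60 to 96 called members, of which 56 to 85 were higher and 4 to 13 lower, with a median log2 fold change of 0.32 to 0.45. The range for ZNF431 was -0.079 to 0.22 and for ZNF780A -0.13 to 0.20. Over all tested genes it gave 3550 to 6621 calls, 1774 to 3303 higher and 1765 to 3318 lower, with the most calls without shCtrl replicate 2.

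The median log2 fold change of the tested members was 0.29 with a pseudocount of 1, 0.51 with a minimum FPKM of 5 and 0.50 on TPM, which also moved the median of all tested genes by 0.10. A minimum FPKM of 5 left 46 tested members, of which 27 rose and 5 fell, 32 in all. That fit called 24.4% of all genes higher and 23.8% lower. Members with little shared sequence gave 61 calls among 115 tested, 54 higher and 7 lower, against 20.8% and 21.2% of all tested genes. Lower members numbered 5 with no filter and 6 on TPM, against 7.85% and 16% of all genes, and the cause was not tested. Among peaks with the lowest 50% of p-values, 39 members had a shCtrl and 46 a shNAT10 peak, and 2.17% and 2.00% of member peaks overlapped the other list. A reciprocal overlap of 50% gave 1.00% and 0.990%.

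With the replicate number as a block, 80 of 179 members were called higher and 10 lower, 90 in all. Over all genes 19.4% were then called higher and 20.1% lower. ZNF653 and ZNF792 lost their call (limma, adjusted p = 0.0815 and 0.0753). Deviations from the group means correlated at -0.0432, 0.0643 and 0.107 between same-numbered libraries, and at -0.122 to 0.0632 between the others. Deviations within a group sum to 0 for each gene, so these small values cannot settle whether the numbers pair the samples. Depth limits low members: the lowest read number of a called member in a library was 22.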
